A study of Mus musculus with 4 samples.

Results

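The 6 forkhead genes *Foxc1*, *Foxc2*, *Foxd1*, *Foxd2*, *Foxl2* and *Foxs1* were followed in RNA from the embryonic mouse larynx with and without *Shh*, and they are 6 of the 46983 genes listed for each library. They were chosen by name, with earlier results of these data known, as forkhead genes known from mesenchyme and the cells around vessels. Bulk tissue does not show which cells carried their transcripts. The data came from 4 libraries, 2 of *Shh-/-* tissue (pools 1 and 2) and 2 of wild-type (WT) tissue (pools 4 and 6). Each library was made from 3 pooled larynxes of stage E10.5, at 32 to 35 somites. The mutant embryos carry the Shhtm1amc null allele on a Swiss Webster background and the WT embryos are Swiss Webster. The sample labels write the mutant genotype as Shh+/-, whereas the study's text and the design given for the series say *Shh-/-*, which is the name used here. The allele removes *Shh* from the whole embryo rather than from the larynx alone, and the dissected vocal fold tissue was not sorted into cell types.

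Forkhead genes encode transcription factors that share a winged-helix DNA-binding domain. *Foxc1* and *Foxc2* act together in mesoderm and neural crest mesenchyme, where they are needed for vessels, the heart outflow tract and the skeleton of the head and trunk. *Foxd1* is best known from the stroma of the kidney, *Foxd2* from somite, limb and facial mesenchyme, *Foxl2* from the ovary and the mesenchyme around the eye, and *Foxs1* from pericytes and neural crest derivatives. In the gut tube, Hedgehog ligand made by the epithelium signals to the surrounding mesenchyme, and *Foxf1*, *Foxf2* and *Foxl1* are forkhead genes known to respond to it there. *Foxf1* and *Foxl1* lie next to *Foxc2* on the chromosome and *Foxf2* lies next to *Foxc1*.

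Each of the 6 genes is a protein-coding gene with a single exon in the GENCODE annotation. In mm10 coordinates *Foxc1* (ENSMUSG00000050295.3) lies on the plus strand at chr13:31806691-31810643 and *Foxd1* (ENSMUSG00000078302.4) on the plus strand at chr13:98354242-98356703. *Foxc2* (ENSMUSG00000046714.7) lies on the plus strand at chr8:121116171-121118895 and *Foxl2* (ENSMUSG00000050397.3) on the plus strand at chr9:98955607-98956847. *Foxd2* (ENSMUSG00000055210.4) is on the minus strand at chr4:114906282-114908873, and *Foxs1* (ENSMUSG00000074676.2) is on the minus strand at chr2:152931898-152933208. The GENCODE transcripts of *Foxc1* (5844 nt), *Foxd1* (5064 nt) and *Foxl2* (3256 nt) are longer than the spans above. GC content and shared sequence were read from the GENCODE transcripts. These were GC-rich, at 54.4% for *Foxd1* to 62.7% for *Foxd2*, against a median of 49.6% over the tested genes with a GC value. They share almost no sequence with other genes, since 4 of the 5795 stretches of 50 bases in *Foxc1*, 4 of 2676 in *Foxc2* and 0 in the other 4 genes occur elsewhere in the annotated transcripts. A gene annotated over *Foxc2* on the same strand, *Gm20388*, was listed at 0.847 TPM in *Shh-/-* pool 1 and at 0 in the other 3 libraries.

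*Foxd2* and *Foxl2*, the members whose pools stood furthest apart between the genotypes, each start head to head with a long non-coding RNA gene. The start of *Foxd2* lies 383 bases from that of *Foxd2os*, and the start of *Foxl2* lies 307 bases from that of *Foxl2os*. The 250 bases upstream of each RefSeq start (RefSeq promoter table, GRCm38.p6, the assembly of mm10) are printed here because they fall within these shared intervals. The *Foxd2* window is chr4:114908899-114909148 on the minus strand and the *Foxl2* window is chr9:98955357-98955606 on the plus strand. Both are written 5′ to 3′ along the forkhead gene, with CpG dinucleotides in capitals.
Foxd2: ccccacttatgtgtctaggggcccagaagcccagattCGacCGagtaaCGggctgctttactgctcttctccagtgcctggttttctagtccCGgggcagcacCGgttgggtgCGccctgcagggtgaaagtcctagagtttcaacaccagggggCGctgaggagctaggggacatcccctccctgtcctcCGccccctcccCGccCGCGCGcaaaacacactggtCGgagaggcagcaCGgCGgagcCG
Foxl2: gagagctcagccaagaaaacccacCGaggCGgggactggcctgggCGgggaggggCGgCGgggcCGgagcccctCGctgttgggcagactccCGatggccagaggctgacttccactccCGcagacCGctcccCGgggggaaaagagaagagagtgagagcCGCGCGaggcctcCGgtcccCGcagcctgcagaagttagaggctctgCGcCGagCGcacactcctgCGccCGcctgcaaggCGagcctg
The *Foxd2* window holds 16 CpG dinucleotides at 64.4% GC and the *Foxl2* window 22 at 70.8% GC, where the median of 32851 RefSeq windows of the same length was 6 CpG dinucleotides and 52.4% GC. The *Foxc1* window holds 29 CpG dinucleotides and the *Foxd1* window 12. *Foxc2* and *Foxs1* were not matched in the table. The motifs searched on both strands of the 4 matched windows were the GLI motif GACCACCCA, the forkhead motif GTAAACA and the TATA motif TATAAA. None of the 4 windows held any of them, and over all RefSeq windows 0.225% held the GLI motif, 3.17% the forkhead motif and 12.4% the TATA motif.

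Values are given as TPM, which is a length-scaled share of each library's transcripts. They can be set side by side between genes as far as the gene lengths used in the scaling hold, which was not tested. Fold changes are differences in log2(TPM + 1), *Shh-/-* minus WT, a scale on which changes at low TPM come out too small. They were tested with limma, a linear model that borrows the estimate of spread across genes, over the 16972 genes whose TPM averaged 1 or more. Adjusted p-values are those of Benjamini and Hochberg over all of these genes, and a gene is said to rise or fall where its adjusted p is under 0.05. The labels do not say that the pools of a genotype came from separate litters, so the p-values measure the spread between these pools. TPM carries no read counts, so the error of each value is the spread between 2 pools. With 2 pools a group, the smallest two-sided p of an exact permutation test is 0.333. Permutation tests of a ratio between genes used the difference of their log2(TPM + 1), whereas the ratios printed are of TPM.

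*Shh* itself was at 10.4 and 10.8 TPM in the mutant pools and at 23.7 and 42.1 TPM in WT (−1.49 on the log2 scale, limma adjusted p = 0.0895), so its transcripts were lower but present in the mutant pools, and the value per gene does not separate the part removed by the allele from the rest. The Hedgehog target *Ptch1* fell (log2 fold change −2.0, adjusted p = 0.0319), as did the Hedgehog-binding protein gene *Hhip* (−3.36, adjusted p = 0.0323). The libraries held 1372 and 3128 Mb of aligned sequence in *Shh-/-* pools 1 and 2 and 2845 and 2972 Mb in the WT pools, so *Shh-/-* pool 1 was the least deep. RNA integrity numbers ran from 7.7 to 9. No pair of libraries shared values, with correlations of log2(TPM + 1) across genes between 0.971 and 0.987.

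The 6 forkhead genes spanned a wide range of levels in WT larynx, with *Foxc1* highest, *Foxd1* and *Foxc2* next, and *Foxd2*, *Foxs1* and *Foxl2* low. None of the 6 passed the test between genotypes, where 0.725% of all tested genes did. For 2 of the 6 (*Foxd2* and *Foxl2*) the unadjusted limma p was under 0.05, where 24.8% of all tested genes had such a p. *Foxl2* was among the tested genes through its mutant pools alone, as its WT pools lay under 1 TPM. The genotypes did not overlap for 3 of the 6, 2 of them higher and 1 lower, which is near the background of 60.7% of all tested genes (38.0% higher and 22.7% lower). Their fold changes had a median of −0.16, and those of all tested genes one of 0.08.

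*Foxc1* was at 28.9 and 34.8 TPM in the mutant pools and at 42.0 and 33.8 TPM in the WT pools. The groups overlapped, since *Shh-/-* pool 2 lay above WT pool 6. The means were 31.8 ± 4.12 TPM (SD, n = 2) and 37.9 ± 5.79 TPM (SD, n = 2), and the log2 fold change was −0.24 (standard error 0.17, 95% interval from −0.67 to 0.19, limma adjusted p = 0.396). The interval does not reach a fall of 1 on the log2 scale.

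*Foxc2* was at 10.8 and 19.7 TPM in the mutant pools and at 17.1 and 14.2 TPM in the WT pools. The mutant pools were the lowest and the highest of the 4 libraries and enclosed both WT values. Its log2 fold change was −0.08 (standard error 0.30, 95% interval from −0.85 to 0.69, limma adjusted p = 0.881). The direction rested on single pools, as the log2 fold change was 0.32 without *Shh-/-* pool 1, −0.48 without *Shh-/-* pool 2 and 0.05 without WT pool 4. The ratio of *Foxc1* to *Foxc2*, the paralogs that act together, was 2.67 and 1.77 in the mutant pools and 2.46 and 2.39 in WT, with overlapping groups (exact permutation p = 1, two-sided).

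*Foxd1* was at 10.2 and 18.1 TPM in the mutant pools and at 20.1 and 17.2 TPM in the WT pools. *Shh-/-* pool 2 lay among the WT values and *Shh-/-* pool 1 below them. The log2 fold change was −0.42 (standard error 0.29, 95% interval from −1.16 to 0.31, limma adjusted p = 0.390). It was −0.04 without *Shh-/-* pool 1 and −0.81 without *Shh-/-* pool 2.

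*Foxd2* was at 1.79 and 2.87 TPM in the mutant pools and at 5.37 and 4.86 TPM in the WT pools. The mutant pools were the 2 lowest of the 4, and the WT mean of 5.11 ± 0.362 TPM (SD, n = 2) was 2.19 times the mutant mean of 2.33 ± 0.765 TPM (SD, n = 2). The log2 fold change was −0.89 (standard error 0.24, 95% interval from −1.50 to −0.28, limma adjusted p = 0.130). Within the same subfamily, *Foxd1* was 5.67 and 6.30 times as high as *Foxd2* in the mutant pools and 3.74 and 3.54 times as high in WT. These ratios did not overlap (exact permutation p = 0.333, two-sided, the smallest this design allows).

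*Foxl2* was at 4.09 and 1.70 TPM in the mutant pools and at 0.494 and 0.488 TPM in the WT pools. Both mutant pools lay above both WT pools, which were almost equal, and the gap between the mutant pools was wider than that between *Shh-/-* pool 2 and WT. The mutant mean of 2.89 ± 1.69 TPM (SD, n = 2) was 5.90 times the WT mean of 0.491 ± 0.00411 TPM (SD, n = 2). The log2 fold change was 1.31 (standard error 0.36, 95% interval from 0.39 to 2.24, limma adjusted p = 0.134). With a WT mean under 1 TPM, *Foxl2* passed the TPM filter through the mutant pools alone. The gene was thinly covered, at 2.69 and 2.64 reads per base in the mutant pools and 0.703 and 0.724 in WT before scaling for depth.

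*Foxs1* was at 1.13 and 1.83 TPM in the mutant pools and at 1.08 and 0.999 TPM in the WT pools. *Shh-/-* pool 1 and the WT pools were close together and *Shh-/-* pool 2 stood above them. The log2 fold change was 0.27 (standard error 0.25, 95% interval from −0.37 to 0.91, limma adjusted p = 0.521).

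**Figure D1:**
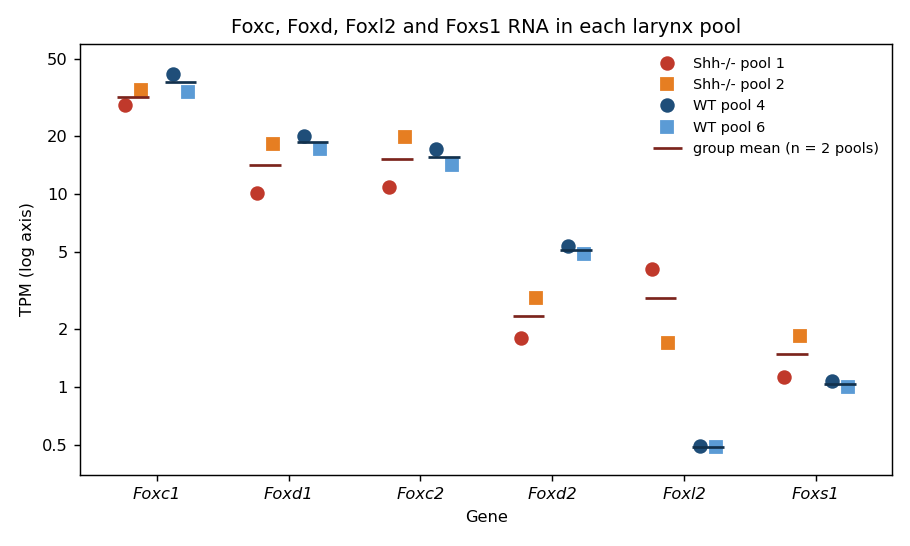
TPM (log axis) of the 6 forkhead genes in each library, with the mean of the 2 pools of each genotype as a horizontal line. *Foxd2* lies lower in both *Shh-/-* pools (1.79 and 2.87 TPM) than in WT, *Foxl2* lies higher (4.09 and 1.70 TPM), and *Foxc1*, *Foxc2* and *Foxd1* overlap between genotypes.

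The ranges of the genes by level were not fully separated within a genotype. In WT, *Foxc1* was above all others, and *Foxd1* (17.2 to 20.1 TPM) and *Foxc2* (14.2 to 17.1 TPM) were next to each other with ranges that almost touched. In the mutant pools the ranges of *Foxc2* (10.8 to 19.7 TPM) and *Foxd1* (10.2 to 18.1 TPM) overlapped. Those of *Foxl2* (1.70 to 4.09 TPM) and *Foxd2* (1.79 to 2.87 TPM) also overlapped, and that of *Foxs1* (1.13 to 1.83 TPM) reached into both. Read within each library, *Foxc2* was slightly above *Foxd1* in both mutant pools and below it in both WT pools. *Foxd2* was above *Foxs1* in both mutant pools, while *Foxl2* was above both in *Shh-/-* pool 1 and below both in *Shh-/-* pool 2. In WT the low genes kept apart, with *Foxd2* above *Foxs1* and *Foxs1* above *Foxl2* in both pools.

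Removing the trend of each library with GC content and with transcript length moved all 6 fold changes downward and left 0 past the test in limma, with 3 at an unadjusted p under 0.05. The log2 fold change was then −0.53 for *Foxc1*, −0.44 for *Foxc2*, −0.66 for *Foxd1* and −1.26 for *Foxd2*. It was 0.94 for *Foxl2* and 0.07 for *Foxs1*, so that no direction changed. *Foxl2* also depended on the pseudocount, with 2.22 at a pseudocount of 0.1.

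The mutant pools differed from each other along the same lines for most of the 6 genes. *Shh-/-* pool 1 was below *Shh-/-* pool 2 for 5 of the 6, *Foxl2* being the exception, with a median difference of −0.44 on the log2(TPM + 1) scale. Over all tested genes pool 1 was below pool 2 for 41.9%, and the median difference was 0.05. The 3 with the widest gap in this direction were *Foxc2* (−0.80), *Foxd1* (−0.78) and *Foxd2* (−0.47). Markers of splanchnic mesenchyme, the mesoderm around the gut tube, ran the same way, as 7 of 9 were lower in pool 1 than in pool 2 with a median difference of −1.0, and all 10 endothelial markers were lower in pool 1 with a median difference of −0.27. The lists did not all run this way, as 2 of 10 cranial and pharyngeal markers were lower in pool 1 (median difference 0.35), and the median difference was 0.03 for pericyte and smooth muscle markers and 0.02 for paraxial and sclerotome markers. The part of tissue makeup and of the lower depth of pool 1 in these gaps was not tested. In bulk tissue, fewer cells of a type and less RNA per cell cannot be told apart.

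Several chromosomal neighbours of *Foxc1* and *Foxc2* were much lower in the mutant larynx. Of the 36 nearest expressed neighbours of the 6 genes (up to 3 on each side), 4 fell in the mutant pools and 0 rose, where 0.165% and 0.56% of all tested genes did. All 4 lay beside *Foxc1* or *Foxc2*. A neighbour counted as expressed where its TPM averaged 1 or more over the 4 libraries. *Foxf2*, *Foxl1* and *1700018A04Rik* reached this through WT alone (mutant means 0.740, 0.701 and 0 TPM). *Foxl2os* and *Xkr7* reached it through the mutant pools alone (WT means 0.484 and 0.299 TPM). The counts thus describe a filtered set. Of the 36, 9 lay higher and 17 lower in both mutant pools, and 10 overlapped, where 38.0% of all tested genes lay higher and 22.7% lower. Not all of the 36 lie close by, as the gaps reached 1950 kb at *Foxd2* and 1155 kb at *Foxc1*.

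On the plus strand upstream of *Foxc1*, at a gap of 175 kb, lies *Foxf2*. It was at 0.241 and 1.24 TPM in the mutant pools and at 20.3 and 20 TPM in WT, a clear separation. The log2 fold change was −3.67 (standard error 0.32, 95% interval from −4.49 to −2.85, limma adjusted p = 0.0383), which does not meet the interval of *Foxc1*. There were 120 and 28.0 *Foxc1* transcripts for each *Foxf2* transcript in the mutant pools and 2.07 and 1.69 in WT (exact permutation p = 0.333, two-sided, the smallest possible). The ratio of 120 rests on *Foxf2* at 0.241 TPM in *Shh-/-* pool 1, the least deep library. *1700018A04Rik*, an uncharacterised gene beyond *Foxf2*, was listed at 0 in both *Shh-/-* pools and was at 3.15 and 2.74 TPM in WT (limma adjusted p = 0.0488). The third forkhead gene of this cluster, *Foxq1*, was at 1.42 and 1.56 TPM in the mutant pools and at 3.41 and 2.90 TPM in WT (−0.74 on the log2 scale, limma adjusted p = 0.135). On the other side of *Foxc1*, *Gmds*, which encodes an enzyme of GDP-fucose synthesis, lies on the minus strand with its 3′ end at a gap of 8.94 kb, and had a log2 fold change of −0.15 (limma adjusted p = 0.499).

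*Foxc2* is enclosed by genes of the *Foxf1* cluster on both sides. *Foxl1* lies 9.05 kb downstream, and was at 0.462 and 0.941 TPM in the mutant pools and at 8.43 and 7.26 TPM in WT. It fell by 2.39 on the log2 scale (95% interval of the log2 fold change from −2.99 to −1.78, limma adjusted p = 0.0422). Upstream, *Fendrr*, a long non-coding RNA transcribed away from *Foxf1*, was at 0.668 and 2.13 TPM in the mutant pools and at 52.3 and 35.8 TPM in WT (−4.28 on the log2 scale, limma adjusted p = 0.0383). *Foxf1* itself, at a gap of 28.0 kb, was at 0.848 and 9.57 TPM in the mutant pools and at 72.3 and 64.6 TPM in WT. The pools of *Foxf1* stood apart by genotype but the mutant pools differed widely from each other, and at −3.97 (standard error 0.81) it did not pass the test (limma adjusted p = 0.0976).

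Between *Foxf1* and *Foxc2* lies *Mthfsd*, a broadly expressed gene 7.78 kb from *Foxc2*, with a log2 fold change of −0.01 (limma adjusted p = 0.980). The genes nearest to *Foxc2* on its left and right thus had fold changes of −0.01 and −2.39 while *Foxc2* had −0.08. There were 23.5 and 20.9 *Foxc2* transcripts for each *Foxl1* transcript in the mutant pools and 2.02 and 1.95 in WT. The ratio of *Foxc2* to *Foxf1* was 12.8 and 2.06 in the mutant pools and 0.236 and 0.219 in WT, so that the more abundant gene of the pair was *Foxf1* in WT and *Foxc2* in the mutant. Neither ratio overlapped between genotypes (exact permutation p = 0.333 for each, two-sided). All 4 of these neighbours also lost the call with every pool kept, at a pseudocount of 0.1 (limma adjusted p-values from 0.0536 to 0.0675) and with no filter on TPM (0.146). Leaving out any 1 library raised the adjusted p of *Foxf2* to between 0.0699 and 0.154, that of *Foxl1* to between 0.0917 and 0.169, that of *Fendrr* to between 0.0699 and 0.148 and that of *1700018A04Rik* to between 0.109 and 0.170, without a change of direction.

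**Figure D2:**
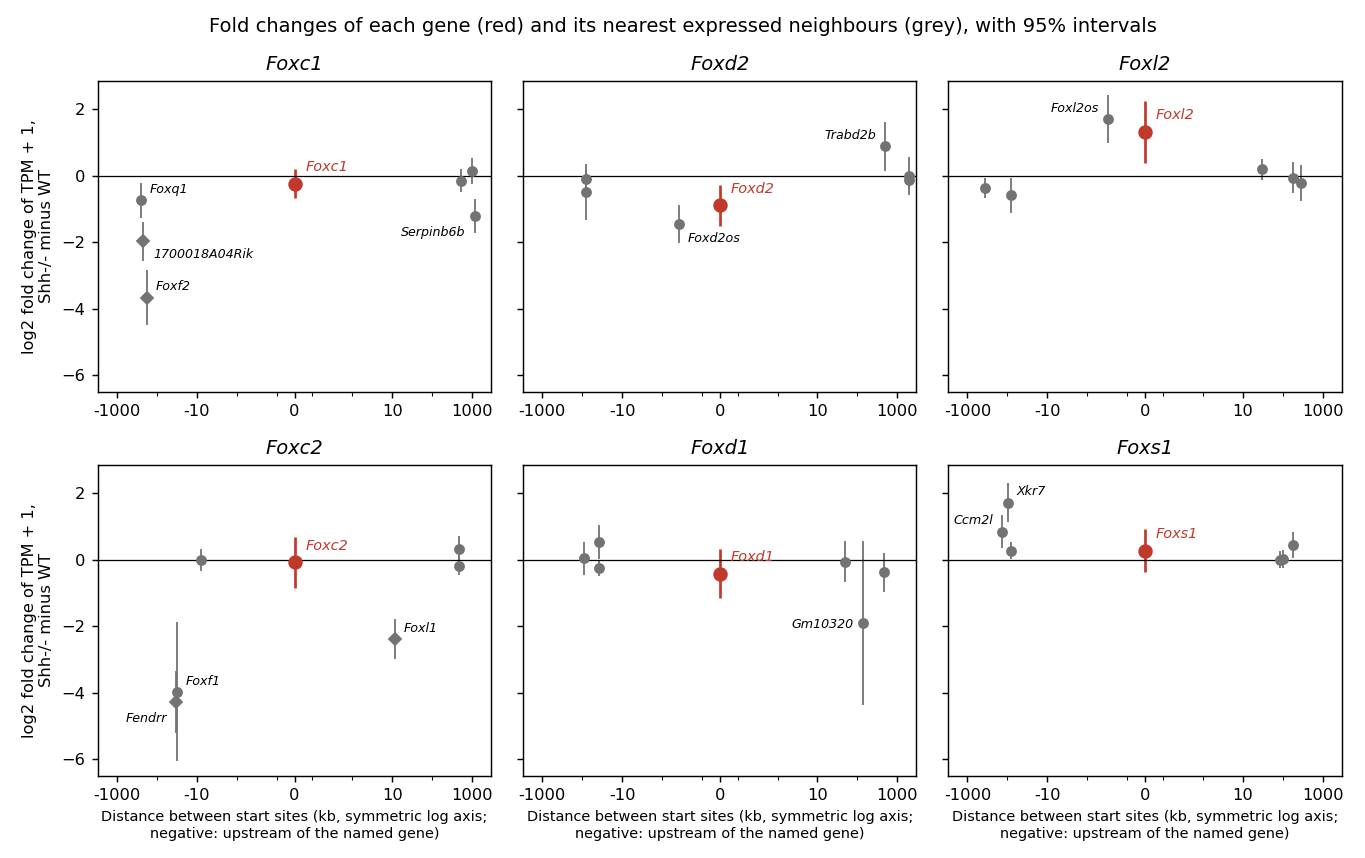
Log2 fold change of TPM + 1 (*Shh-/-* minus WT) with limma's 95% interval for each of the 6 forkhead genes (red) and its nearest expressed neighbours (grey), against the distance between start sites in kb on a symmetric log axis. Diamonds mark an adjusted p under 0.05, which 4 neighbours of *Foxc1* and *Foxc2* reached (*Foxf2*, *1700018A04Rik*, *Fendrr* and *Foxl1*) while the intervals of *Foxc1* and *Foxc2* span 0.

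The head-to-head non-coding genes lay on the same side of WT as their forkhead partners. *Foxd2os* was at 1.51 and 2.20 TPM in the mutant pools and at 6.10 and 7.52 TPM in WT, so that both mutant pools were lower, as for *Foxd2* (log2 fold change −1.45, standard error 0.22, limma adjusted p = 0.0713). *Foxl2os* was at 4.13 and 3.38 TPM in the mutant pools and at 0.763 and 0.205 TPM in WT, so that both mutant pools were higher, as for *Foxl2* (log2 fold change 1.70, standard error 0.28, limma adjusted p = 0.0749). None of these 4 genes passed the test. *Foxl2os*, with a WT mean of 0.484 TPM, passed the TPM filter through the mutant pools alone, as did *Foxl2*. The ratio of *Foxd2* to *Foxd2os* was 1.18 and 1.3 in the mutant pools and 0.881 and 0.646 in WT (exact permutation p = 0.333, two-sided). The ratio of *Foxl2* to *Foxl2os* was 0.990 and 0.502 in the mutant pools and 0.647 and 2.38 in WT, with overlapping groups (exact permutation p = 0.667, two-sided).

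Fold changes of the next genes out from each pair varied. *Cmpk1*, a nucleotide kinase gene 50.5 kb from *Foxd2*, had a log2 fold change of −0.09 (limma adjusted p = 0.604), and *Faim*, an apoptosis inhibitor gene 29.5 kb from *Foxl2*, had one of 0.19 (limma adjusted p = 0.379). On the other sides, *Trabd2b*, at a gap of 291 kb from *Foxd2*, was at 2.70 and 3.23 TPM in the mutant pools and at 1.65 and 0.754 TPM in WT. Its log2 fold change of 0.88 (limma adjusted p = 0.159) was about the size of that of *Foxd2* and opposite in sign. *Gm5920*, beyond *Foxl2os*, had a log2 fold change of −0.60 (limma adjusted p = 0.176). Around *Foxs1* the groups did not overlap for 4 of 6 neighbours, all higher in the mutant pools, beside 60.7% of all tested genes with groups apart and 38.0% apart and higher. Of these, *Xkr7* was at 3.49 and 3.03 TPM in the mutant pools and at 0.402 and 0.196 TPM in WT (limma adjusted p = 0.0600), and *Ccm2l*, a gene of endothelial cells, was at 5.27 and 6.54 TPM against 2.98 and 2.70 TPM (limma adjusted p = 0.113). No neighbour of *Foxd1* passed the test.

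Of 43 forkhead genes followed, the 6 included, 31 passed the TPM filter. Among them *Foxf2* and *Foxl1* passed it through the WT pools alone, and *Foxl2* and *Foxi3* through the mutant pools alone. Of these 31, 2 fell in the mutant pools (*Foxf2* and *Foxl1*) and 0 rose in limma, with an unadjusted p under 0.05 for 16, against 0.725% called and 24.8% with such a p among all tested genes. The groups stood apart for 11 higher and 13 lower genes and overlapped for 7, where 60.7% of all tested genes stood apart, and the median log2 fold change was −0.24. These genes ranged from *Foxi2* at the upper end, with *Foxl2* next to it, to *Foxf1* at the lower end, and *Foxc1*, *Foxc2*, *Foxd1* and *Foxs1* had fold changes nearer to 0. *Foxd3*, the remaining expressed *Foxd* gene and a marker of neural crest, was at 6.63 and 6.10 TPM in the mutant pools and at 5.88 and 3.72 TPM in WT (limma adjusted p = 0.378).

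**Figure D3:**
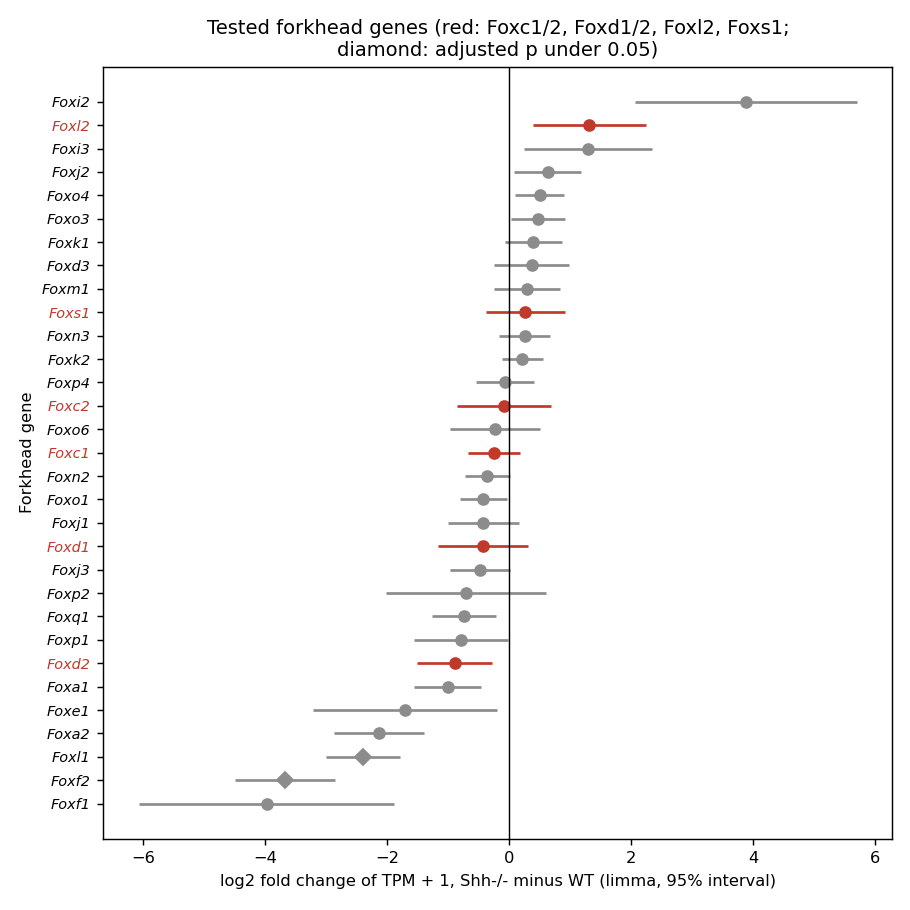
Log2 fold change of TPM + 1 (*Shh-/-* minus WT) with limma's 95% interval for 31 tested forkhead genes, ordered by fold change, with the 6 genes of interest in red and diamonds for an adjusted p under 0.05. Of the red genes, the intervals of *Foxd2* (−1.50 to −0.28) and *Foxl2* (0.39 to 2.24) leave out 0 and the other 4 span it.

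The 6 genes together gave 56.9 and 78.9 TPM in the mutant pools and 86.1 and 71.6 TPM in WT, with overlapping groups. The summed TPM of the 43 forkhead genes was lower in both mutant pools (547 and 593 against 737 and 693), and the 6 genes made up 10.4 and 13.3% of this sum in the mutant pools and 11.7 and 10.3% in WT. *Foxf1*, *Foxf2* and *Foxl1* made up 0.283 and 1.98% in the mutant pools and 13.7 and 13.3% in WT, from 1.55 and 11.7 TPM against 101 and 91.9 TPM. *Foxc1* and *Foxc2* alone made up 7.27 and 9.17% in the mutant pools and 8.01 and 6.93% in WT. In WT larynx the *Foxf* and *Foxl1* group was thus more abundant than *Foxc1* and *Foxc2* together, and in the mutant pools it was less abundant.

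**Figure D4:**
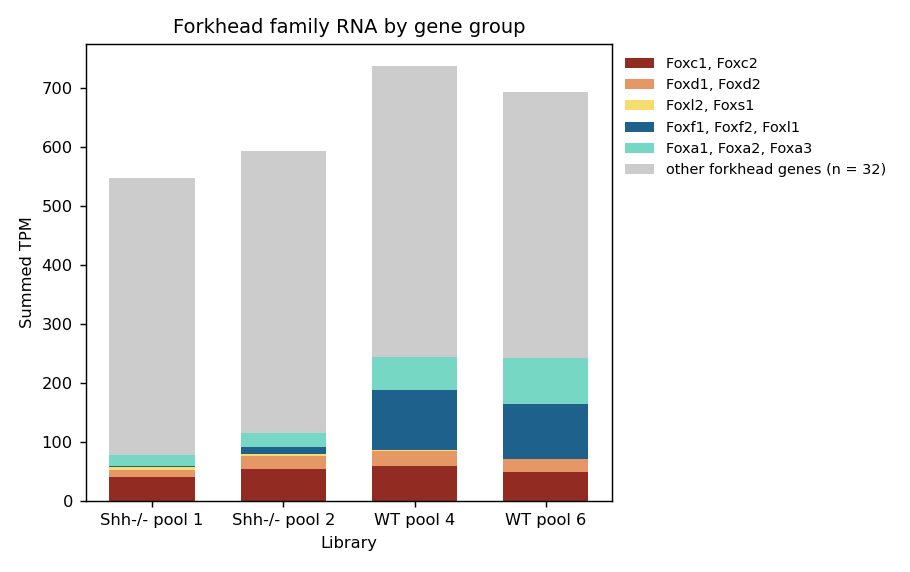
Summed TPM of groups of forkhead genes in each library, stacked to the total of 43 genes. The other forkhead genes (grey) number 31, a count that the legend misprints. *Foxf1*, *Foxf2* and *Foxl1* (blue) give 101 and 91.9 TPM in WT and 1.55 and 11.7 TPM in the mutant pools, while *Foxc1* and *Foxc2* (dark red) give 39.8 and 54.4 TPM in the mutant pools and 59.1 and 48.0 TPM in WT.

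Markers of the tissues in which these forkhead genes are known were read from the same libraries. The lists were chosen with earlier results of these data known, so their counts and sums beside the background are a description and not a test. Among all tested genes, the background for each list, 0.56% were called higher and 0.165% lower, and 38.0% lay higher and 22.7% lower in both mutant pools. Of 10 endothelial markers, 1 rose (*Tie1*, an endothelial receptor, log2 fold change 1.17, limma adjusted p = 0.0470) and 9 had both *Shh-/-* pools above both WT pools, with a summed level of 515 and 673 TPM in the mutant pools against 359 and 340 TPM in WT. Of 10 pericyte and smooth muscle markers, 1 rose (*Tagln*, an actin-binding protein of smooth muscle, log2 fold change 0.88, limma adjusted p = 0.0493) and 7 lay higher in both mutant pools. The other 3, *Rgs5*, *Kcnj8* and *Myh11*, overlapped, with log2 fold changes of 0.14, −0.14 and 0.007. The list summed to 609 and 578 TPM in the mutant pools against 357 and 353 TPM in WT. Its largest parts were *Tagln* (232 and 208 against 116 and 120 TPM) and *Acta2* (179 and 198 against 104 and 107 TPM). These 2 lists, which cover vessel walls where *Foxc1*, *Foxc2* and *Foxs1* are known to act, had median log2 fold changes of 0.77 and 0.50. None of the listed vessel markers was at 0 in all libraries.

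Of 10 markers of cranial and pharyngeal mesenchyme, 2 rose and 8 lay higher in both mutant pools (0.56% and 38.0% of all tested genes). In this list 1 marker lay lower in both mutant pools, beside 22.7% of all tested genes, and 1 overlapped. The lower marker was *Lum* (log2 fold change −1.01, limma adjusted p = 0.106) and the overlapping one *Alx1* (−0.28, limma adjusted p = 0.551). The list had sums of 773 and 646 TPM in the mutant pools against 394 and 382 TPM in WT and a median of 1.35. The rising genes were *Twist1*, a regulator of cranial mesenchyme, and *Alx4*, a homeobox gene of facial and limb mesenchyme. *Twist1* was at 147 and 125 TPM in the mutant pools and 46.1 and 43.8 TPM in WT (1.57 on the log2 scale, limma adjusted p = 0.0323). *Alx4* was at 16.7 and 10.8 TPM against 0.766 and 0.312 TPM (log2 fold change 3.25, limma adjusted p = 0.0412). It passed the TPM filter through the mutant pools alone. With any 1 pool left out, *Tie1*, *Tagln*, *Twist1* and *Alx4* kept their direction but not the call, with limma adjusted p-values from 0.0699 to 0.195. With every pool kept, *Tie1* and *Tagln* also lost the call under quantile scaling (0.0572 and 0.0507), median centring (0.0556 and 0.0604), a variance model without trend (0.0600 and 0.0807) and some other settings. Paraxial and sclerotome markers, of which 7 of 8 were tested, had a median of 0.82, with sums of 95.8 and 80.3 against 47.7 and 42.7 TPM. Of the tested ones 4 lay higher, 1 lower (*Meox2*, −0.77, limma adjusted p = 0.151) and 2 overlapped, and 0 were called in either direction (unadjusted p under 0.05 for 5). The largest fold change was that of *Pax1* (30.1 and 9.67 against 1.08 and 0.400 TPM), which the paper uses as a marker of pharyngeal pouches. By in situ hybridization the paper found *Pax1* outside the vocal folds in controls. It reports an unchanged *Pax1* domain in *Shh-/-* embryos at later stages, without extension into the larynx. The source of the *Pax1* RNA in these pools was not tested. The splanchnic markers had a median of −1.44, with 7 of 9 lower in both mutant pools, sums of 113 and 136 against 297 and 276 TPM and 0 called (unadjusted p under 0.05 for 7). *Foxf1* is itself in this list, beside *Osr1* (log2 fold change −1.58, limma adjusted p = 0.0966) and *Tbx5* (−2.23, limma adjusted p = 0.106), while *Barx1* had the opposite sign (1.46, limma adjusted p = 0.0736).

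The sum of the 6 forkhead genes overlapped between genotypes while the summed vessel, cranial and paraxial markers were higher, and the summed splanchnic markers lower, in both mutant pools. Of the other lists, 5 of 9 tested neuron markers rose (median 1.80). The 8 epithelial markers were split, with 4 higher and 3 lower in both mutant pools and 1 overlapping. Their median was 0.09, with 0 called and 3 at an unadjusted limma p under 0.05. The lower ones were *Foxa2*, *Nkx2-1* and *Cdh1* (log2 fold changes −2.13, −1.64 and −0.42). The higher ones, *Epcam*, *Krt8*, *Krt18* and *Cldn7*, ran from 0.18 to 0.44. Of 6 markers of neural crest glia, 5 were tested, all of them higher in both mutant pools (median 0.47), and 0 were called (unadjusted p under 0.05 for 3). The part of these shifts in the values of the 6 genes was not tested.

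**Figure D5:**
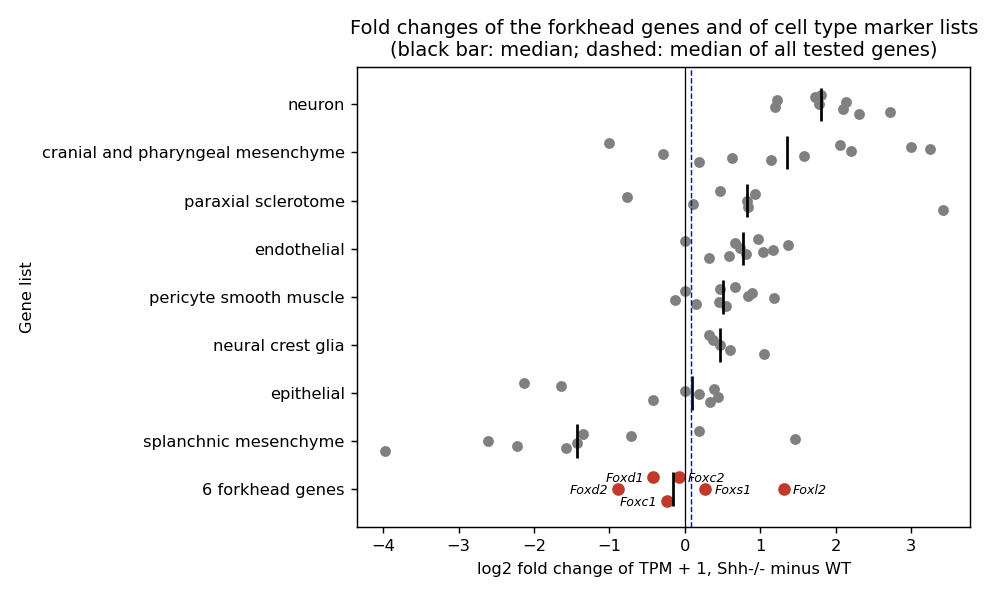
Log2 fold change of TPM + 1 (*Shh-/-* minus WT) of the 6 forkhead genes (red) and of the tested genes of 8 marker lists (grey), with the median of each list as a black bar and that of all tested genes (0.08) as a dashed line. The splanchnic list has a median of −1.44 and the cranial and pharyngeal list one of 1.35, and the forkhead genes (median −0.16) spread around 0.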

How the data were processed

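Bulk RNA-seq was analysed from 4 libraries. The authors prepared strand-specific poly(A) libraries, aligned single-end reads to mm10 with HISAT2 2.1.0 and assembled genes with StringTie 1.3.6, with the versions as in the submitters' processing notes. The annotation version, read length and strand setting were not given in the sources used here. The deposited tables hold, per gene, the coverage signal (mean reads per base, not scaled between libraries), FPKM as the authors obtained it by scaling coverage to the library's aligned bases, and TPM, which the authors scaled to a constant sum per library. Aligned bases were read from the most frequent ratio of coverage to FPKM. The authors' own table of differentially expressed genes was not used.

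TPM was summed per gene ID, and log2(TPM + 1) was fitted with limma 3.58.1 in R 4.3.3 (eBayes with a mean-variance trend, no covariates) for the 16972 genes whose TPM averaged 1 or more, adjusted over all of them by Benjamini and Hochberg and a threshold of 0.05. The script was tested on simulated data. Of the gene IDs, 46488 of 46983 matched GENCODE M21 without the version suffix, which was used for gene types, exons, transcript sequence, transcript length and GC content. Coordinates are those of the deposited tables.

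Named genes were the 6 forkhead genes, forkhead genes past the threshold or with groups apart and a log2 fold change of at least 1 in size, up to 3 expressed neighbours a side, the 3 genes nearest in profile, Hedgehog targets and cell type markers. Some genes that this rule would name are not reported here, and the forkhead counts and sums leave them out. The genes and lists were chosen with earlier results of these data known. Alternatives were another pseudocount (0.1), no filter or a minimum mean TPM of 5, quantile or median scaling, TPM without haemoglobin and mitochondrial genes, FPKM, other variance models, a threshold of 0.1, protein-coding genes alone, a GC and length correction (natural splines, 5 df) and each pool left out.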

Additional observations from a re-analysis of the deposited data

How the results depend on the processing

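None of the 6 forkhead genes passed the test in limma under any of the alternatives run, each pool left out included, with 0 to 3 of them at an unadjusted p under 0.05. The adjusted p ran from 0.0953 to 0.403 for *Foxd2* and from 0.112 to 0.424 for *Foxl2*, and both kept their direction. With a minimum mean TPM of 5, *Foxd2*, *Foxl2* and *Foxs1* had no value. *Foxc2* changed sign, to 0.32 without *Shh-/-* pool 1 and 0.05 without WT pool 4, and its fold changes with 1 pool left out ran from −0.48 to 0.32. The GC and length correction moved all 6 genes downward and turned *Gmds* to 0.094 and *Cmpk1* to 0.16. *Mthfsd* ran from −0.11 to 0.10 with 1 pool left out, and turned to 0.10 without *Shh-/-* pool 2 and to 0.02 without WT pool 6. The cause was not tested for these changes of sign.

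The count of forkhead genes called, 2 as reported, was 0 with a pseudocount of 0.1 (16 at an unadjusted p under 0.05), 0 of 40 with no filter (13 at an unadjusted p under 0.05), 1 with a minimum mean TPM of 5, 3 among protein-coding genes, 5 at an adjusted p under 0.1 (1 higher and 4 lower) and from 0 to 0 with each pool left out (9 to 13 at an unadjusted p under 0.05). Of all tested genes 123 were called, against 69 with a pseudocount of 0.1, 0 of 28524 with no filter (5011 at an unadjusted p under 0.05), 858 at an adjusted p under 0.1, 189 of 13133 protein-coding genes, 73 after the GC and length correction and 0 to 16 with each pool left out. *Ptch1* and *Hhip* kept their direction but not the call with any 1 pool left out, with limma adjusted p-values from 0.0699 to 0.132. *Foxf2*, *Foxl1* and *Fendrr* lost the call in the same way, with values from 0.0699 to 0.169. With every pool kept, the calls of *Foxf2*, *Foxl1*, *Fendrr*, *1700018A04Rik*, *Hhip*, *Alx4*, *Tie1* and *Tagln* were lost at a pseudocount of 0.1 (0.0513 to 0.0675), and these, *Ptch1* and *Twist1* with no filter (0.146). *Tie1* and *Tagln* were also lost under quantile scaling, median centring, the model without trend and the GC and length correction (0.0507 to 0.0807), *Tie1* with FPKM (0.0506) and *Tagln* with a minimum mean TPM of 5 (0.0521). Median centring shifted the median of all genes by 0.13 downward and the alternative scalings turned no sign among the 6 genes. No paired analysis was possible because the genotypes share no replicate number. *Foxl2* had under 1 read per base in either WT pool, and the limit that depth sets for each gene was not tested.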

Other observations

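Forkhead genes of epithelia were also listed among the larynx transcripts. The endodermal genes *Foxa2* (5.34 and 9.12 TPM against 29.2 and 39.8 TPM, limma adjusted p = 0.0602) and *Foxa1* (14.5 and 15.6 TPM against 25.6 and 37.8 TPM, limma adjusted p = 0.102) lay lower in both mutant pools without passing the test. *Foxe1*, a gene of thyroid and pharyngeal endoderm, was at 3.28 and 0.318 TPM in the mutant pools and at 5.72 and 7.96 TPM in WT (limma adjusted p = 0.172). In the opposite direction, *Foxi2* was at 31.3 and 29.0 TPM in the mutant pools and at 3.46 TPM and 0 in WT (limma adjusted p = 0.0869), and *Foxi3*, known from pharyngeal ectoderm and endoderm, was at 1.35 and 3.14 TPM against 0.615 TPM and 0 (limma adjusted p = 0.155). A 0 listed for a gene may be a failed estimate.

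Genes with the most similar profile over the 4 libraries were found by the Euclidean distance of log2(TPM + 1) after centring each gene, which is a description over 4 points that share 2 genotypes. Among the nearest to *Foxl2* were *Nkx2-3*, a homeobox gene of gut mesenchyme and pharyngeal endoderm (distance 0.152), and *Stat3* (0.187), and 4 tested genes lay within 0.2. Nearest to *Foxd2* were *Mir7067* (0.0916), *Adra1d* (0.142) and *Gm14022* (0.147), with 18 within 0.2. For *Foxd1* these were *P3h2* (0.0452), *Slc7a3* (0.0574) and *Rpl38* (0.0732), with 53 within 0.2. For *Foxc2* they were *Gm13827* (0.0326), *Vav3* (0.0976) and *Hspe1-ps2* (0.10), with 52 within 0.2. *Foxc1*, with *Gm4849* (0.0473), *Nudt19* (0.0601) and *Olfml1* (0.0638), and *Foxs1*, with *Gm25604* (0.0296), *Tmem200b* (0.0322) and *Gimap6* (0.0419), had flatter profiles, which 326 and 338 tested genes matched within 0.2.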
